A study of Mus musculus with 6 samples.

Results

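The 33 genes described here were at a low level in CAR-Trem2-Ms and plainly detected in CAR-Ms. Both are mouse macrophages engineered with a chimeric antigen receptor (CAR), an artificial surface protein that gives the cell a target to bind. The genes were chosen from the deposited counts by a rule on their CPM, a gene's reads per 1000000 reads of its library. The rule asked for at least 2 CPM in each CAR-Ms sample and a CAR-Ms mean at least 8 times the CAR-Trem2-Ms mean, to which 0.05 CPM was added. Of 22063 genes in the table, 10058 reached the level, and 39 of these, or 0.388%, also reached the fold. Abca1, Vdr and 4 predicted genes were then dropped by name, which left 33. Abcg1, also barred by name, lay just short of the fold. The groups were thus separated by choice, and the levels of the 33 genes are given as a description, with no test.

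RNA sequencing covered 6 samples. The 3 CAR-Trem2-Ms samples carry the genotype label TERM2+, spelled so in the labels, and their treatment label names a lentivirus, 1 µM VD3 for 24 h and isolation by flow cytometry. The 3 CAR-Ms samples are labelled WT, and their own treatment label names the lentivirus alone. A protocol common to all samples also mentions VD3, so it is unclear from the labels whether it was given to CAR-Ms. Genotype label, sort and possibly VD3 therefore differed together and cannot be told apart. Culture lasted 7 days in medium that held 20 ng/mL of M-CSF, the growth factor of the macrophage lineage. Skin is the tissue named for every sample. The labels do not say what vector, promoter or clone carried the receptor, nor whether replicates were separate cultures or animals, so the spread between samples may be technical.

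Libraries held 9804959 to 12558021 reads in CAR-Trem2-Ms and 14204468 to 15913100 reads in CAR-Ms. Trem2, the lipid-sensing receptor in the group's name, had 186.7, 187.3 and 174.9 CPM in CAR-Trem2-Ms against 82.2, 77.2 and 80.4 CPM in CAR-Ms (log2 fold change 1.32, SE 0.0448, adjusted p = 7.8e-21, edgeR quasi-likelihood test with Benjamini-Hochberg adjustment). Of 15 macrophage markers, 11 could be tested, and their level added up to 4029.5 to 4079.4 CPM in CAR-Trem2-Ms and 3804.8 to 3838.6 CPM in CAR-Ms. Of these, 9 were higher and 2, Csf1r and Cd68, lower, and Cd68 turned higher with upper quartile scaling. The call of Msr1, among the 9, held in 9 of 15 fits, and was lost with DESeq2, total-count scaling, no filter and when CAR-Ms replicate 1, CAR-Ms replicate 3 or CAR-Trem2-Ms replicate 3 was left out. Marco had no read in CAR-Trem2-Ms and 1 read in CAR-Ms. Over the 11402 genes tested, 40.1% were lower and 40.9% higher in CAR-Trem2-Ms, so a call on its own says little about any gene here. In such bulk samples, fewer cells with a transcript and less of it per cell cannot be told apart.

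Most of the 33 genes are known from tissues other than macrophages. By textbook knowledge, 8 belong mainly to the nervous system: Celsr2, N4bp3, Serpini1, Kcnj14, Cplx1, Atp8a2, Septin3 and Tppp. Epithelia of the gut use Npc1l1 and Myo1a, the inner ear Myo15a, salivary glands Muc19 and cartilage Col2a1. Fgd5 and Jam3 are studied in endothelium, Ngp, Gzmm and Tbxa2r in other blood lineages, and Zfp819 in the germline. A further 8 (Maff, Syne2, Rell1, Gramd1c, Nxn, Frmd6, Cyria and Plxnb1) are active in many tissues. The remaining 6, Ranbp3l, Tmem236, Pla2g4c, Klhl30, Glis1 and Zswim5, were not assigned to a tissue.

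The promoters of the genes are of different kinds, and 4 are shown to set the genes with the 3 highest CAR-Ms levels beside 1 of the 3 genes with a single read left. CpG dinucleotides, which are dense in the promoters of widely used genes and sparse in many tissue-restricted ones, are in capitals. Each run covers 250 bases before the RefSeq start and 50 bases after it, on build GRCm38.p6, written from 5′ to 3′ along the gene.
Ranbp3l, chr15:8967699-8967998, plus strand: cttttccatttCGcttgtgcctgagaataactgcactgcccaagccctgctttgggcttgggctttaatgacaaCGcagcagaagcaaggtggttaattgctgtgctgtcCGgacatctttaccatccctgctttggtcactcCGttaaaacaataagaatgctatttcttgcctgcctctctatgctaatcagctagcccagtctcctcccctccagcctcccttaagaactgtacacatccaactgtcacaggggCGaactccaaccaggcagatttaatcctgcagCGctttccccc
Maff, chr15:79346371-79346670, plus strand: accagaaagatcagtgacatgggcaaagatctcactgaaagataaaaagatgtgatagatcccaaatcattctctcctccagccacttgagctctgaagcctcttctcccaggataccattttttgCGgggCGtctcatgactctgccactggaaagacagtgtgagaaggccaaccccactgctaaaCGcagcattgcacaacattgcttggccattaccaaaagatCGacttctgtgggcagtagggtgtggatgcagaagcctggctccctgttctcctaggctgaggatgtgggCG
Myo15a, chr11:60469089-60469388, plus strand: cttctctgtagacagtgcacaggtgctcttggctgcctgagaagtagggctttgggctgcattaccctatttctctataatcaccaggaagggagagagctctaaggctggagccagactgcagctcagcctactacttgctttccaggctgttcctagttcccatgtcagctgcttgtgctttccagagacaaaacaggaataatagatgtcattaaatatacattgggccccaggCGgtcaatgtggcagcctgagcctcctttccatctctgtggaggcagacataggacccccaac
Fgd5, chr6:91978715-91979014, plus strand: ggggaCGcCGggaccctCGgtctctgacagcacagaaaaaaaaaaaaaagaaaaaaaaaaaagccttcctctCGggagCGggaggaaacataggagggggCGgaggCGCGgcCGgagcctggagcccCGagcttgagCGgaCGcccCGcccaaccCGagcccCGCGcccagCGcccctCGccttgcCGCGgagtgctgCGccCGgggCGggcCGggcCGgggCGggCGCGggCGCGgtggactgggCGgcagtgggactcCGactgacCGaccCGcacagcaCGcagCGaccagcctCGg

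The windows of Ranbp3l, Maff and Myo15a hold 6, 5 and 1 CpG, and that of Fgd5 holds 37. Celsr2 and Syne2, next in CAR-Ms level, hold 40 and 35. RefSeq promoters were matched for 26 of the 33 genes, and their CpG counts ran from 1 to 52 with a median of 19.5, against a median of 22.0 over 8102 matched genes at the same minimum level. Fewer than 10 CpG were found in 11 of the 26 (42.3%), against 13% of those 8102. These 11 are Ranbp3l, Maff, Myo15a, Tmem236, Npc1l1, Gramd1c, Ngp, Myo1a, Gzmm, Pla2g4c and Tbxa2r. CpG-poor promoters are commoner among low-level genes, so the same share was read within bands of CAR-Ms level. From 2.39 to 7.49 CPM it was 4 of 11 (36.4%), against 253 of 863 genes (29.3%). Above 7.49 and up to 103.5 CPM it was 7 of 15 (46.7%), against 634 of 5200 (12.2%). The wider gap thus lay among the better-read genes, and it rests on 7 genes. That band is wide, and most of the described genes in it lie toward its lower end, so level is not fully matched. Windows were also picked differently: nearest the annotated gene start for the 26, and first listed for the genes compared. More than 1 RefSeq start was listed for Maff (3), Gramd1c (3), Gzmm (2), Pla2g4c (2) and Tbxa2r (2), and only 1 window of each was read. All of these are among the 11 CpG-poor genes, so their class depends on the start picked. Each of the other matched genes had 1 start. One window, of Gramd1c, starts 21337 bases from the annotated gene start, and that of Pla2g4c 1012 bases from it. Without these windows, an alternative added after the data were seen, the counts were 3 of 10 (30.0%) in the lower band and 6 of 14 (42.9%) in the upper. The level left in CAR-Trem2-Ms did not separate the promoter kinds: its median was 9.06% for the 11 CpG-poor promoters (4.11% to 12%) and 8.28% for the other 15 (1.03% to 12%).

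Short motifs were searched on both strands of the same windows. The GC box GGGCGG, with its central CpG, was in 12 of 26 windows (46.2%) against 35.9% of 32544 RefSeq promoters. Those promoters hold a median of 7.0 CpG, against 19.5 in the 26 windows and 22.0 for genes at the minimum level. The motif shares are thus set against a background poorer in CpG and not matched for level. The CCAAT box stood in 11 (42.3%, against 37.4%), and the PU.1 core GAGGAA, the letters bound by a master factor of macrophages, in 8 (30.8%, against 28.1%). The TATAAA letters occurred in 1, Tmem236 (3.85%, against 13.6%). AGGTCA, the core read by nuclear receptors, was in 2, Npc1l1 and Tbxa2r (7.69%, against 16.2%). The AP-1 letters TGANTCA were in none of the 26 windows and in 7.79% of all promoters, which says only that these letters are not in these windows.

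Added over the 33 genes, the level was 28.75, 32.43 and 33.46 CPM in CAR-Trem2-Ms against 439.4, 443.7 and 441.0 CPM in CAR-Ms. In reads these were 361, 318 and 409 in CAR-Trem2-Ms and 6242, 7061 and 6412 in CAR-Ms. The sums were close to each other within a group. All 33 genes had every CAR-Trem2-Ms value below every CAR-Ms value, as did 49.1% of the 10058 genes at the minimum, and the rule asks for a gap of this kind. The level left in CAR-Trem2-Ms, as a percent of the CAR-Ms mean, ran from 0.668% to 12% with a median of 7.19%, that is 8.3 to 149.7 times lower with a median of 13.9. In the authors' deposited table, the log2 ratio of mean TPM (transcripts per 1000000, scaled for transcript length) ran from -7.73 to -3.05 with a median of -4.09. In CAR-Trem2-Ms, 25 of the 33 genes averaged under 1 CPM.

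**Figure D1:**
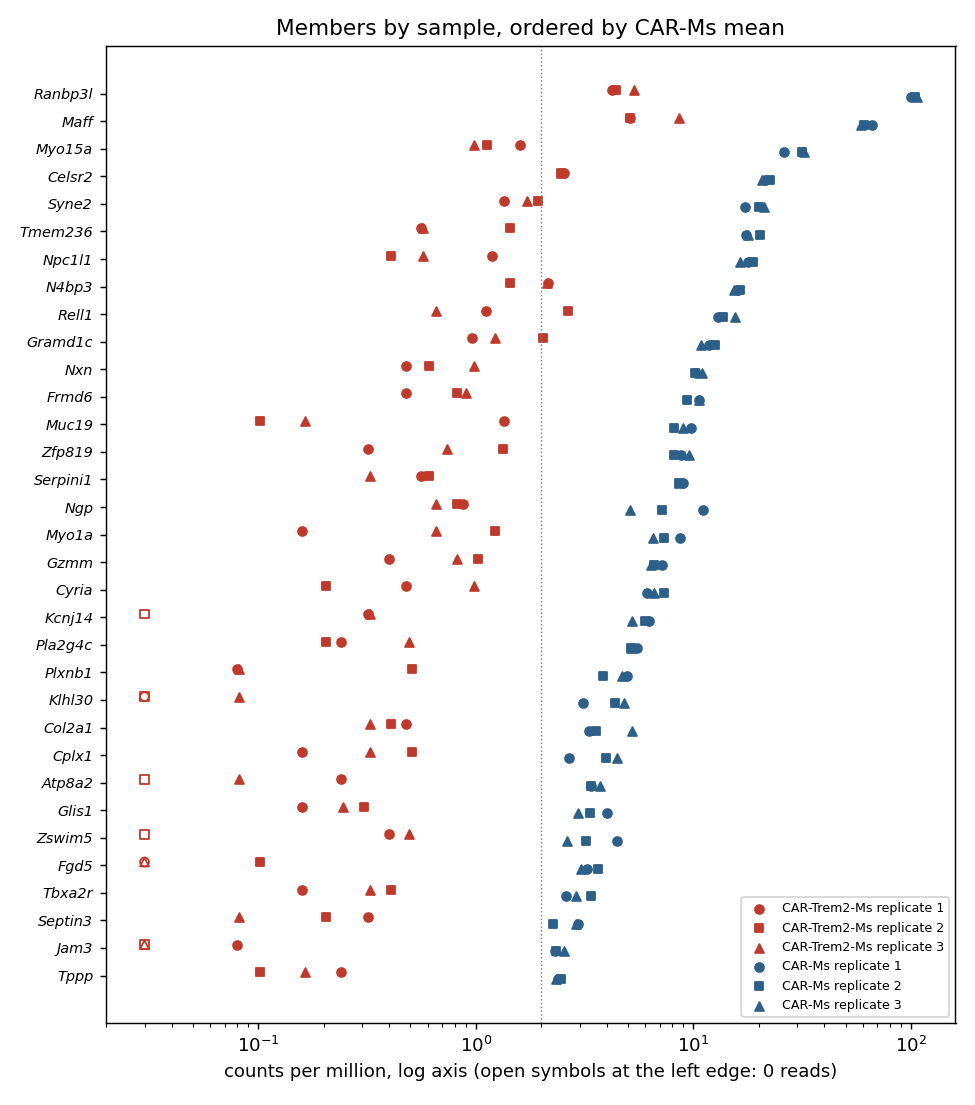
CPM (log axis) of the 33 genes in each of 3 CAR-Trem2-Ms samples (red) and 3 CAR-Ms samples (blue), ordered by CAR-Ms mean; open symbols mark 0 reads and the dotted line the minimum of 2. Each gene's red symbols lie left of its blue ones, and the blue symbols of a gene lie closer together than the red on this axis for most genes.

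Of the 4 genes of transcription and nuclear transport, Ranbp3l and Maff held the highest levels of the set. Ranbp3l, which carries BMP-responsive Smad proteins out of the nucleus, had 4.22, 4.39 and 5.32 CPM in CAR-Trem2-Ms against 99.6, 104.4 and 106.4 CPM in CAR-Ms. It had the most reads of the set, and 4.49% of its level was left. Maff, a small Maf protein that binds DNA without an activation domain of its own, had 5.10, 5.10 and 8.59 CPM in CAR-Trem2-Ms and 66.1, 60.6 and 59.0 CPM in CAR-Ms. On the length-scaled TPM scale Maff led the set in CAR-Ms, with a mean of 3.72 in CAR-Trem2-Ms and 55.0 in CAR-Ms, followed by Ranbp3l with 1.16 and 38.0. Zfp819, a zinc finger protein studied in mouse testis, gave 0.319, 1.33 and 0.736 CPM in CAR-Trem2-Ms against 8.73, 8.17 and 9.56 CPM in CAR-Ms. Its CAR-Trem2-Ms samples spread over 4 to 13 reads. Glis1, a Krüppel-like transcription factor, was at 0.159 to 0.306 CPM in CAR-Trem2-Ms and 2.96 to 4.01 CPM in CAR-Ms.

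Genes of the cytoskeleton and of cell polarity were the most numerous, with 9 of 33. Myo15a, the unconventional myosin that builds hair-cell stereocilia in the inner ear, had 1.59, 1.12 and 0.982 CPM in CAR-Trem2-Ms against 26.1, 31.5 and 32.3 CPM in CAR-Ms. Only 4.11% of its level was left, over 11 to 20 reads in each CAR-Trem2-Ms sample. Celsr2, a cadherin of planar cell polarity, had 2.55, 2.45 and 2.45 CPM in CAR-Trem2-Ms and 21.3, 22.4 and 20.6 CPM in CAR-Ms. With 11.6% left it stood near the fold limit, and its CAR-Trem2-Ms samples hardly differed from each other. Syne2, nesprin-2 of the nuclear envelope, gave 1.35, 1.94 and 1.72 CPM in CAR-Trem2-Ms against 17.3, 20.0 and 21.2 CPM in CAR-Ms. Frmd6, a FERM protein also called willin that acts in the Hippo pathway, had 0.478, 0.816 and 0.900 CPM in CAR-Trem2-Ms and 10.6, 9.30 and 10.6 CPM in CAR-Ms. The CAR-Ms samples of Frmd6 were close, with a coefficient of variation of 7.44%, and the CAR-Trem2-Ms samples, of 6 to 11 reads, less so at 30.6%.

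Myo1a, the myosin of the enterocyte brush border, had 0.159, 1.22 and 0.654 CPM in CAR-Trem2-Ms against 8.66, 7.29 and 6.53 CPM in CAR-Ms. Its CAR-Trem2-Ms values rest on 2, 12 and 8 reads and differed more than those of Celsr2. Cyria, which binds active Rac1 and limits the WAVE complex in making branched actin, had 0.478, 0.204 and 0.982 CPM in CAR-Trem2-Ms and 6.12, 7.35 and 6.60 CPM in CAR-Ms. Fgd5, an exchange factor for Cdc42 in endothelium and blood stem cells, had 0, 1 and 0 reads in CAR-Trem2-Ms against 46, 58 and 44 reads in CAR-Ms. In CPM these are 0, 0.102 and 0 in CAR-Trem2-Ms and 3.24, 3.64 and 3.03 in CAR-Ms. Tppp, a tubulin-bundling protein of oligodendrocytes, was at 0.102 to 0.239 CPM in CAR-Trem2-Ms and 2.34 to 2.45 CPM in CAR-Ms. Septin3, a septin of nerve terminals, was at 0.0818 to 0.319 CPM in CAR-Trem2-Ms and 2.26 to 2.96 CPM in CAR-Ms.

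Among the 4 genes that handle lipids and sterols, Npc1l1 is the intestinal cholesterol transporter blocked by ezetimibe. It had 1.19, 0.408 and 0.573 CPM in CAR-Trem2-Ms against 17.9, 18.7 and 16.4 CPM in CAR-Ms, with 4.11% left. Gramd1c, a protein of the endoplasmic reticulum that moves cholesterol at membrane contacts, had 0.956, 2.04 and 1.23 CPM in CAR-Trem2-Ms and 11.8, 12.5 and 10.8 CPM in CAR-Ms. It was the closest gene inside the fold limit. Pla2g4c, a cytosolic phospholipase A2 known in human heart and skeletal muscle, gave 0.239, 0.204 and 0.491 CPM in CAR-Trem2-Ms against 5.49, 5.15 and 5.16 CPM in CAR-Ms. Atp8a2, an aminophospholipid flippase of neurons and photoreceptors, had 3, 0 and 1 reads in CAR-Trem2-Ms against 48, 54 and 54 reads in CAR-Ms. That is 0.239, 0 and 0.0818 CPM in CAR-Trem2-Ms and 3.38, 3.39 and 3.71 CPM in CAR-Ms. Atp8a2 overlaps Nupl1 on the same strand, so the counts of both are uncertain. Nupl1, which codes for a nuclear pore protein, had 2, 0 and 0 reads in CAR-Trem2-Ms against 32, 30 and 40 reads in CAR-Ms (log2 fold change -4.98, adjusted p = 5.2e-07, edgeR).

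The surface proteins were 6. Tmem236, a membrane protein of little known function, had 0.557, 1.43 and 0.573 CPM in CAR-Trem2-Ms against 17.5, 20.2 and 17.8 CPM in CAR-Ms. Rell1, of the RELT family of TNF receptor relatives, gave 1.11, 2.65 and 0.654 CPM in CAR-Trem2-Ms and 13, 13.6 and 15.5 CPM in CAR-Ms. CAR-Trem2-Ms replicate 2 was the highest of its group for both. Kcnj14, the inward rectifier potassium channel Kir2.4 of brain and retina, had 0.319, 0 and 0.327 CPM in CAR-Trem2-Ms against 6.27, 5.97 and 5.23 CPM in CAR-Ms. Here the same replicate 2 was the lowest, with no read against 4 in each of the others. Plxnb1, the plexin that serves as receptor of semaphorin 4D, had 0.0796, 0.510 and 0.0818 CPM in CAR-Trem2-Ms and 4.93, 3.83 and 4.68 CPM in CAR-Ms.

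Jam3, a junctional adhesion molecule of endothelium, had 1, 0 and 0 reads in CAR-Trem2-Ms against 33, 37 and 37 reads in CAR-Ms. In CPM the values were 0.0796, 0 and 0 in CAR-Trem2-Ms and 2.32, 2.33 and 2.54 in CAR-Ms. Tbxa2r, the thromboxane receptor of platelets and smooth muscle, was at 0.159 to 0.408 CPM in CAR-Trem2-Ms and 2.60 to 3.39 CPM in CAR-Ms.

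Of the 5 secreted, matrix and granule genes, Muc19, a gel-forming mucin of salivary glands, had 1.35, 0.102 and 0.164 CPM in CAR-Trem2-Ms against 9.79, 8.11 and 8.94 CPM in CAR-Ms. Its CAR-Trem2-Ms values come from 17, 1 and 2 reads, so replicate 1 set nearly all of what was left. Serpini1, neuroserpin, an inhibitor of tissue plasminogen activator, had 0.557, 0.612 and 0.327 CPM in CAR-Trem2-Ms and 8.94, 8.55 and 8.60 CPM in CAR-Ms. Gzmm, a granzyme of natural killer cells, gave 0.398, 1.02 and 0.818 CPM in CAR-Trem2-Ms against 7.18, 6.60 and 6.40 CPM in CAR-Ms. For both genes the CAR-Ms samples were close to each other. Col2a1, the main collagen chain of cartilage, had 0.478, 0.408 and 0.327 CPM in CAR-Trem2-Ms and 3.31, 3.58 and 5.23 CPM in CAR-Ms.

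Ngp, a granule protein of maturing neutrophils, had 0.876, 0.816 and 0.654 CPM in CAR-Trem2-Ms against 11.1, 7.16 and 5.09 CPM in CAR-Ms. It spread most within CAR-Ms, with a coefficient of variation of 39.3% against a median of 9.19% over the 33 genes. Of the 12 neutrophil markers, Ngp included, the summed level was 3.76 to 7.96 CPM in CAR-Trem2-Ms and 20.8 to 38.0 CPM in CAR-Ms. The defining surface marker Ly6g had no read in CAR-Trem2-Ms and 2 reads over all CAR-Ms. Of 5 other markers tested, 4 were lower in CAR-Trem2-Ms and Cxcr2 was not called (edgeR, adjusted p under 0.05). S100a9 had a log2 fold change of -2.30 (adjusted p = 5.3e-08), S100a8 of -1.89 (3.9e-04), Camp of -3.75 (1.0e-04) and Ltf, lactoferrin, of -3.01 (4.2e-07). CAR-Ms replicate 1 was the highest sample for Ngp and for each of these 4. Whether traces of neutrophils had a part in the Ngp level was not tested.

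T and natural killer cell markers were read beside Gzmm. Their summed level was 19.9 to 30.4 CPM in CAR-Trem2-Ms and 23.1 to 26.7 CPM in CAR-Ms, and Klrb1c and Ncr1, which define natural killer cells, had no read in any sample. Of 6 tested, Cd3d (log2 fold change 3.65, adjusted p = 6.0e-05), Cd8a (4.57, 2.1e-06) and Trac (3.46, 5.2e-05) were higher in CAR-Trem2-Ms, each with at most 23 reads in a sample. Lck was lower (-0.43, adjusted p = 3.7e-03), a call lost with upper quartile scaling. Perforin and the other granzymes had at most 3 reads in any sample, so none could be tested, and the part of such cells in the Gzmm level was not tested. Endothelial markers, read beside Fgd5 and Jam3, summed to 3.03 to 3.68 CPM in CAR-Trem2-Ms and 6.98 to 9.08 CPM in CAR-Ms, with Emcn at 0 reads. Pecam1 (log2 fold change -1.57, adjusted p = 5.7e-03), Cdh5 (-3.06, 4.1e-04) and Esam (-1.52, 4.0e-03) were lower in CAR-Trem2-Ms, and Vwf was not called. Their part in the levels of Fgd5 and Jam3 was not tested.

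Erythroid and megakaryocyte markers were read beside Tbxa2r, since platelets come from megakaryocytes. The 10 markers summed to 5.07 to 5.61 CPM in CAR-Trem2-Ms and 8.53 to 18.9 CPM in CAR-Ms. All 3 that could be tested were lower in CAR-Trem2-Ms: the globins Hba-a1 (log2 fold change -1.59, adjusted p = 1.3e-02) and Hbb-bs (-2.67, 3.7e-05), and the platelet integrin Itga2b (-1.08, 3.5e-04). The call of Hba-a1 held in 10 of the 14 fits that tested it, and was lost without CAR-Ms replicate 1, CAR-Ms replicate 2, CAR-Trem2-Ms replicate 1 or CAR-Trem2-Ms replicate 3. Gp9, a platelet glycoprotein, had no read in CAR-Trem2-Ms and 7, 1 and 2 reads in CAR-Ms, and Pf4 had 3, 6 and 0 reads in CAR-Trem2-Ms and none in CAR-Ms. The part of such cells in the level of Tbxa2r or of the other genes was not tested.

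The last 5 genes code for adaptors and regulators. N4bp3, a binding partner of the ubiquitin ligase NEDD4 in growing neurites, had 2.15, 1.43 and 2.13 CPM in CAR-Trem2-Ms against 16.1, 16.3 and 15.3 CPM in CAR-Ms, with 12% left. Nxn, nucleoredoxin, which holds back Wnt signalling by binding Dishevelled, gave 0.478, 0.612 and 0.982 CPM in CAR-Trem2-Ms and 10.3, 10.2 and 10.9 CPM in CAR-Ms. Klhl30, a little-studied kelch-like protein, had 0, 0 and 1 reads in CAR-Trem2-Ms against 44, 69 and 70 reads in CAR-Ms. As CPM this was 0, 0 and 0.0818 in CAR-Trem2-Ms and 3.10, 4.34 and 4.81 in CAR-Ms, and at 0.668% it kept the smallest share of the set. Cplx1, a complexin that clamps SNARE proteins at synapses, was at 0.159 to 0.510 CPM in CAR-Trem2-Ms and 2.68 to 4.47 CPM in CAR-Ms. Zswim5, a SWIM zinc finger protein, was at 0 to 0.491 CPM in CAR-Trem2-Ms and 2.61 to 4.44 CPM in CAR-Ms.

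The reads that were left set how closely each share is known. For Klhl30, Fgd5 and Jam3, 1 read over all CAR-Trem2-Ms samples gave pooled shares of 0.706% (exact 95% interval 0.0178% to 3.98%), 0.872% (0.0219% to 4.94%) and 1.21% (0.0303% to 6.87%). The intervals reflect counting error alone, and PCR duplicates are not separate molecules. The spread between samples and the choice of these genes by their fold are not in the intervals. The intervals of these 3 genes overlap each other and those of Atp8a2 and Kcnj14, so the order of the lowest genes is not resolved at this depth. On counting error alone, the whole interval lay under the level of 8-fold for 17 of the 33 genes and reached past it for 16. A sample with no read occurred for 6 genes: Kcnj14, Klhl30, Atp8a2, Zswim5, Fgd5 and Jam3. For 9 genes, leaving out 1 CAR-Trem2-Ms sample moved the ratio by over 1.5 times, each time to a lower level. On the log2 ratio of CPM means after adding 0.05, Muc19 was at -3.93 with all samples and at -5.62 without replicate 1. Without replicate 2, Plxnb1 stood at -5.12 in place of -4.05, Rell1 at -3.92 in place of -3.21, Myo1a at -4.05 in place of -3.37 and Fgd5 at -6.07 in place of -5.32. Without replicate 3, Klhl30 stood at -6.37 in place of -5.74 and Cyria at -4.11 in place of -3.48. Without replicate 1, Atp8a2 stood at -5.29 in place of -4.50 and Jam3 at -5.61 in place of -5.00.

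**Figure D2:**
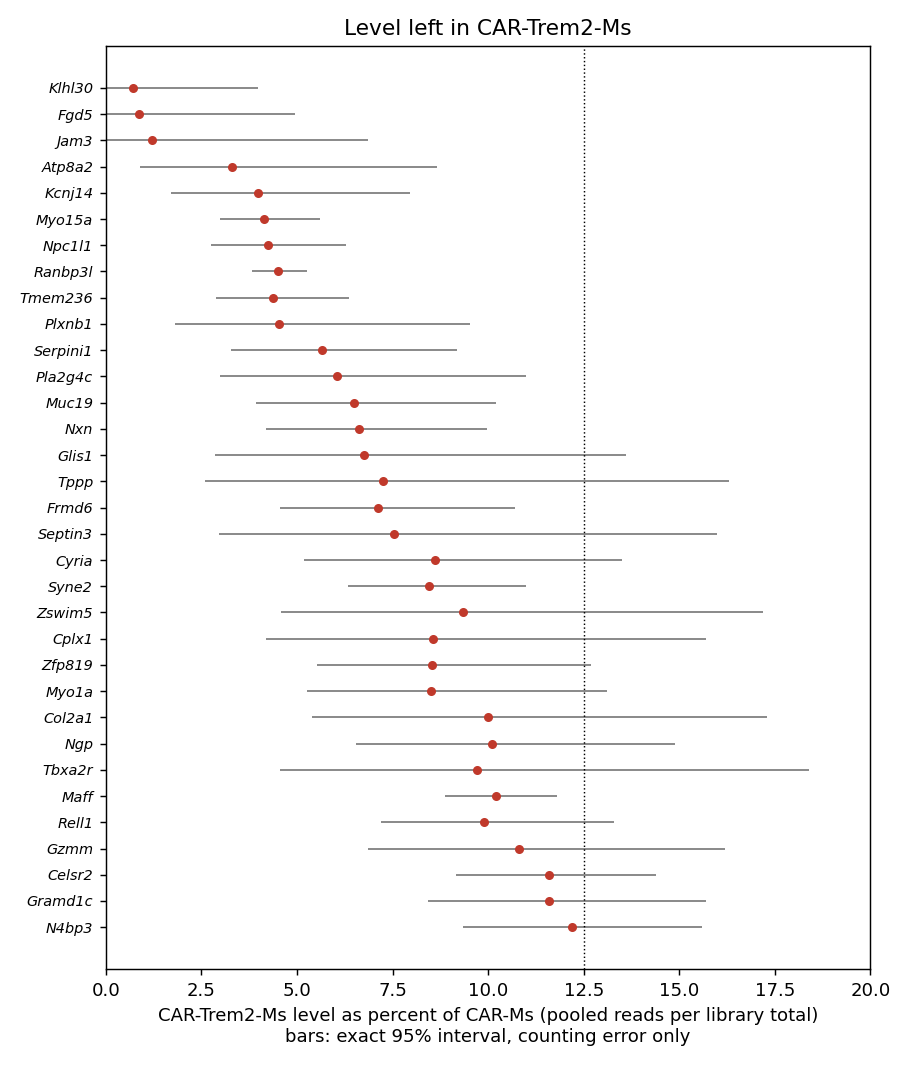
Reads per library total in CAR-Trem2-Ms as a percent of CAR-Ms, pooled over the 3 samples of each group, with exact 95% intervals for counting error; the dotted line marks the 8-fold limit. Klhl30, Fgd5 and Jam3 lie lowest with wide intervals, Ranbp3l has the narrowest interval among genes under 5%, and the intervals of 16 genes cross the limit.

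Just inside the limit stood Gramd1c, N4bp3 and Gzmm, with folds of 8.02, 8.15 and 8.46 after the added 0.05 CPM. Just outside stood Farp2 (7.99), Ltf (7.90) and Orc1 (7.74). Farp2, an exchange factor for small GTPases, had 2.31, 2.96 and 1.80 CPM in CAR-Trem2-Ms against 19.7, 18.5 and 19.5 CPM in CAR-Ms. Orc1, a subunit of the replication origin complex, had 10.8, 14.6 and 14.2 CPM in CAR-Trem2-Ms against 103.8, 101.4 and 101.5 CPM in CAR-Ms. The limit thus cuts through a continuous range of folds. With the groups exchanged, the same rule found 128 of 10223 genes (1.25%), or 123 after the same names were dropped.

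**Figure D3:**
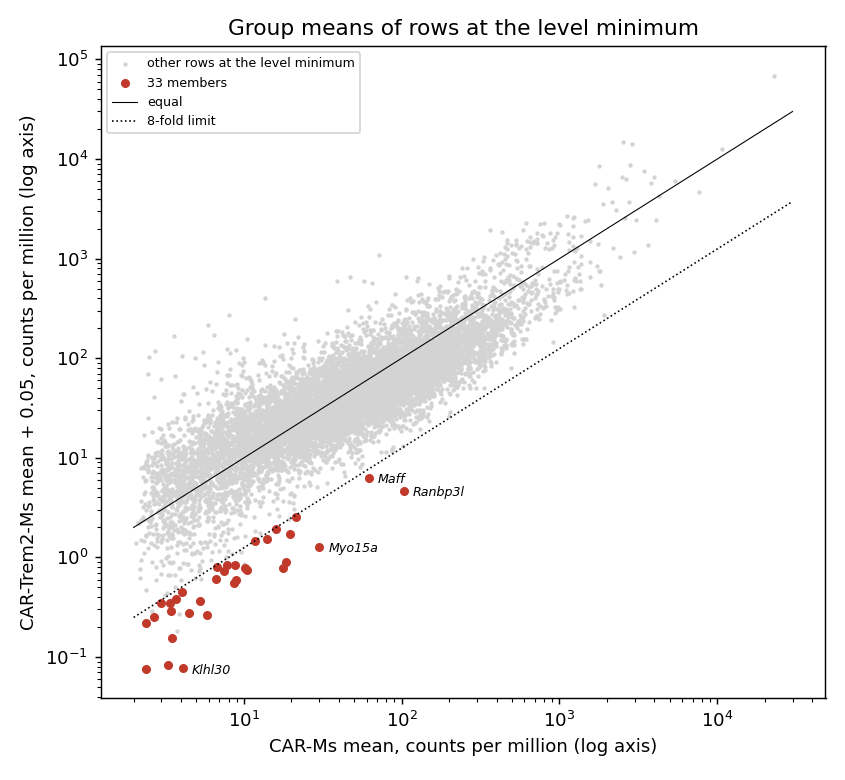
Group means in CPM of the genes at the minimum level, CAR-Trem2-Ms plus 0.05 on the vertical and CAR-Ms on the horizontal log axis, with the 33 genes in red, the solid line for equal levels and the dotted line for the 8-fold limit. The red points lie at the low end of the CAR-Ms range, with Ranbp3l and Maff furthest to the right.

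The genes were of low level in CAR-Ms too: their median was 7.49 CPM and 3.69 TPM, against 44.3 CPM and 28.7 TPM for the other 10025 genes at the minimum. Their transcripts were not longer (median 3.47 kb against 3.46 kb), and their loci spanned a median of 33.7 kb against 23.7 kb. Per the GO component terms in the deposited table, 13 of 33 (39.4%) were placed at the plasma membrane, against 19.7% of the others. Terms of the cytoskeleton were held by 9 (27.3%, against 10.2%), of the extracellular space by 5 (15.2%, against 5.33%) and of the nucleus by 8 (24.2%, against 42.7%). Neuronal terms were held by 7 (21.2%, against 12.9%): N4bp3, Serpini1, Myo1a, Kcnj14, Cplx1, Septin3 and Tppp. These include Myo1a, given above to the gut, and lack Celsr2 and Atp8a2, given above to the nervous system. Terms of an apical surface, brush border or cilium were held by 5 (15.2%, against 4.91%): Myo15a, Npc1l1, Frmd6, Myo1a and Jam3. No test was run on these shares, and the genes compared were not matched to the 33 for level.

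The genes lay on 15 chromosomes and did not form a cluster. Plxnb1 and Ngp on chromosome 9 were the closest, 1.3 Mb apart, followed by Gzmm and Tbxa2r on chromosome 10 at 1.63 Mb. Chromosomes 11 and 15 held 4 genes each. On mm10 (GENCODE M21), Ranbp3l lies at chr15:8967949-9067335, Maff at chr15:79346621-79359076 and Myo15a at chr11:60469339-60528369, all on the plus strand. Klhl30 lies at chr1:91351016-91362416 and Fgd5 at chr6:91978878-92076004 on the plus strand, and Jam3 at chr9:27097384-27155421 on the minus strand. Rell1, Cyria, Plxnb1, Atp8a2, Fgd5 and Jam3 overlap an annotated antisense gene, from which their reads are separate only if counting used strand, which the sources do not state. Muc19 was not placed, since its identifier was not matched.

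The nearest tested gene on each side of the 32 placed genes, genes that overlap them left out, gave 64 neighbours. Nupl1, which overlaps Atp8a2 and is described with it, is thus not among them. In CAR-Trem2-Ms, 31 were lower (48.4%), 20 higher (31.2%) and 13 not called, against 40.1% lower and 40.9% higher over all tested genes. None of the 64 reached 8-fold lower, and 10 reached 2-fold. Not all of the 64 are adjacent: the gap had a median of 14.7 kb and reached 5775.7 kb, between Rell1 and Pcdh7. The lowest log2 fold change was -1.64 for Nipbl, the cohesin loader, 523.5 kb from Ranbp3l (adjusted p = 6.6e-26, edgeR). The highest was 2.46 for Psrc1, a spindle protein 2.62 kb from Celsr2 (adjusted p = 8.1e-21, edgeR). Over all scalings, tests and left-out samples, 21 to 34 neighbours were called lower and 18 to 31 higher, with more higher than lower under upper quartile scaling. Both neighbours were lower for 10 of the genes and both higher for 5. At the Klhl30 locus, Espnl and Erfe, 2.71 and 4.01 kb from its ends, had log2 fold changes of -0.80 (SE 0.276, adjusted p = 9.9e-03) and -0.67 (SE 0.278, adjusted p = 2.8e-02). Neither call held with upper quartile scaling, and that of Erfe was also lost without CAR-Ms replicate 2, CAR-Ms replicate 3 or CAR-Trem2-Ms replicate 1.

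**Figure D4:**
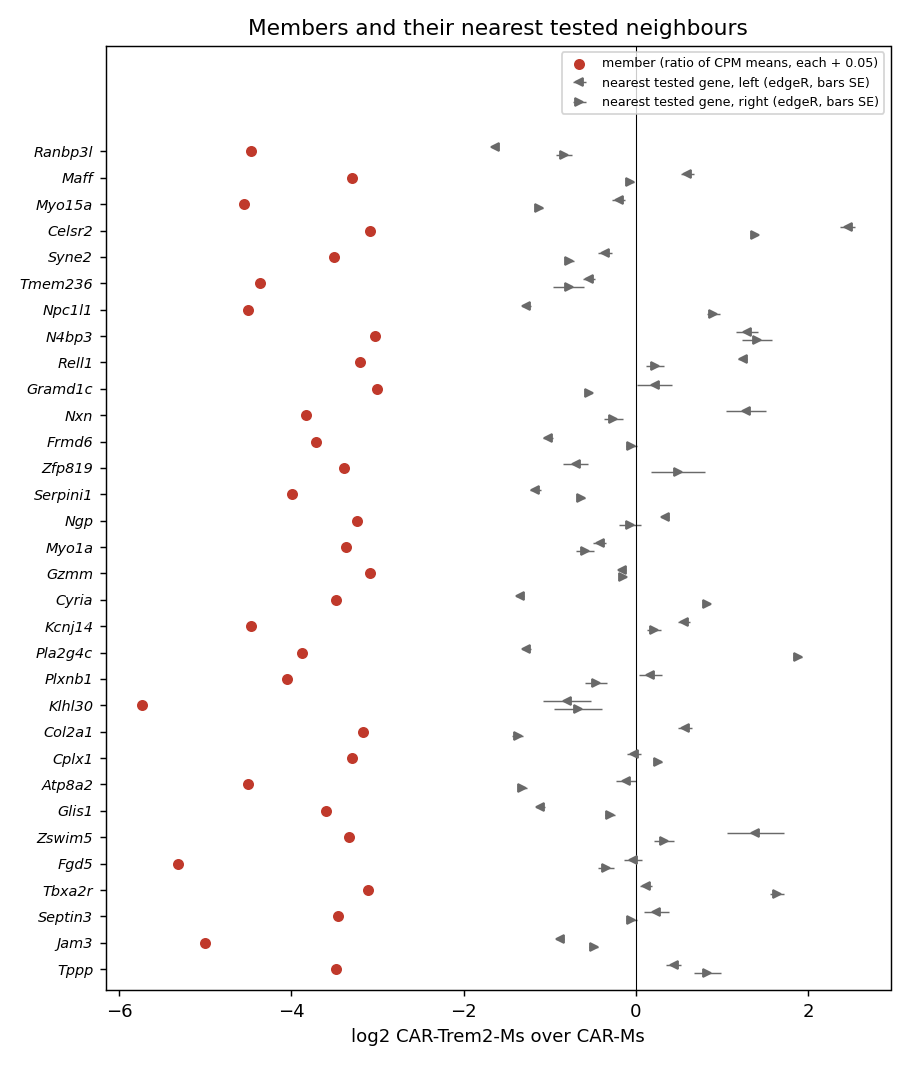
Log2 of CAR-Trem2-Ms over CAR-Ms for 32 genes placed on the genome (red, ratio of CPM means after adding 0.05) and for the nearest tested gene to the left and right of each (grey, edgeR log2 fold change with SE bars). The grey points lie between -1.64 and 2.46, and every red point lies left of them.

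Relatives of the genes by family were read in the same fit. Of 286 relatives in the table, 145 could be tested, with 59 higher (40.7%), 57 lower (39.3%) and 29 not called, near the 40.9% and 40.1% over all tested genes. Under other scalings, tests or left-out samples these counts ran from 53 to 71 higher and from 44 to 64 lower. The relatives given below with a log2 fold change kept their direction and call in all of these fits. In some families the relatives were lower too. Celsr1 and Celsr3, the other cadherins of the Celsr2 family, had log2 fold changes of -1.51 and -0.87 (adjusted p = 1.3e-04 and 5.6e-04). The complexin Cplx3 fell by 2.61 on the log2 scale (adjusted p = 6.6e-04) at a mean of 0.187 CPM in CAR-Trem2-Ms and 1.39 CPM in CAR-Ms. Jam2 was lower beside Jam3, at 2.60 ± 0.322 CPM in CAR-Trem2-Ms and 9.55 ± 1.04 CPM in CAR-Ms (SD, n = 3 each), with a log2 fold change of -1.74 (adjusted p = 3.2e-08, edgeR).

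In other families a relative was higher. Syne1, the giant nesprin related to Syne2, averaged 214.6 ± 15.3 CPM in CAR-Trem2-Ms and 53.3 ± 3.42 CPM in CAR-Ms (SD, n = 3 each), with a log2 fold change of 2.13 (adjusted p = 5.3e-24, edgeR). Myo1g, a membrane-binding myosin of blood cells, averaged 125.1 ± 4.68 CPM in CAR-Trem2-Ms and 20.2 ± 1.26 CPM in CAR-Ms (SD, n = 3 each), with a log2 fold change of 2.76 (adjusted p = 1.7e-24, edgeR). Of 19 testable myosin heavy chains, Myo15a and Myo1a aside, 8 were higher and 10 lower. The small Maf proteins parted: Mafk had a log2 fold change of -1.90 and Mafg of 0.77 (adjusted p = 4.1e-24 and 2.9e-17, edgeR). Gramd1a and Gramd1b, which move cholesterol as Gramd1c does, had log2 fold changes of 1.11 and 1.02 (adjusted p = 9.8e-17 and 1.6e-17). Npc1 and Npc2, the lysosomal cholesterol exporters, had -0.95 and 0.82 (adjusted p = 8.6e-15 and 1.0e-17). Kcnj2, a channel of the same class as Kcnj14, had 2.15 (adjusted p = 9.8e-12). Among 8 testable rows of septins besides Septin3, 5 were lower, of which Septin6 lost its call with upper quartile scaling, and 1, Septin8, was higher.

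Signalling partners came from gene lists. Among 23 tested genes of semaphorins, plexins and ephrins besides Plxnb1, 6 were higher and 9 lower. Plxna3 (log2 fold change 2.05, adjusted p = 1.9e-13) and the co-receptor Nrp1 (1.54, 7.3e-07) were higher, and the ephrin receptor Epha2 (-1.48, 2.1e-13) was lower. Around Tbxa2r, 13 genes of prostanoid and leukotriene synthesis and reception were tested, with 7 higher and 5 lower. Ltc4s, leukotriene C4 synthase, had a log2 fold change of 3.68 (adjusted p = 2.1e-13), and the prostacyclin receptor Ptgir had 1.72 (8.2e-18). Ptgs1, a cyclooxygenase upstream of all prostanoids, had -2.78 (1.7e-11).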

How the data were processed

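The authors deposited a table of 22063 genes that holds, per the file headers, raw read counts and TPM for each of 6 samples, GO component terms and a log2 ratio between the groups with its p-value. The build mm10 and the tools StringTie 1.3.1, HISAT2, Bowtie2 2.2.8 and fastp 0.18.0 are named in the submitters' processing notes. The sources used here do not say what counted the reads, with which annotation, or with or without strand. The authors' log2 ratio is the ratio of mean TPM, and their p-value was not used.

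CPM was computed from the deposited counts over each column total, and the rule's offset of 0.05 was added to the CAR-Trem2-Ms mean before multiplying by 8. The deposited counts went into the quasi-likelihood test of edgeR 4.0.16 (R 4.3.3, TMM factors, filterByExpr), with Benjamini-Hochberg adjustment over 11402 genes and calls at an adjusted p under 0.05. Each fold change sets CAR-Trem2-Ms over CAR-Ms. The fit was checked on simulated data. DESeq2 1.42.0 and limma 3.58.1 served as alternatives, and scipy 1.17.1 gave exact binomial intervals. GENCODE M21 (21973 of 22063 identifiers matched) and RefSeq gave loci and promoters.

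The genes and gene lists were chosen with earlier results of these data known, and families and neighbours after the genes were known. Values in every sample are given for the 24 genes with the highest CAR-Ms mean and the 8 with the least left, and partners are, per list, up to 3 called genes of the largest change with at least 50 reads. Same-numbered replicates correlated at 0.0283, -0.0274 and 0.0319 in their deviations from the group means, so the numbers were not taken to pair samples. Replicates differed by more than sampling (chi-square per degree of freedom 2.19 to 3.34), and each was counted as 1 sample.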

Additional observations from a re-analysis of the deposited data

How the results depend on the processing

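The number of genes chosen depends on the rule: a fold of 4 gave 213, a fold of 16 gave 10, a minimum of 1 CPM gave 50, a minimum of 5 gave 21, an offset of 0.5 gave 11, TPM in place of CPM gave 82, of which 22 were among the 33, and comparing every sample with every other gave 16. Adding the offset after multiplying gave 39, TMM-scaled CPM gave 28, and leaving out 1 sample gave 33 to 42, with 28 to 32 shared. Most dropped out without CAR-Trem2-Ms replicate 1: Gramd1c, Myo1a, Gzmm, Cplx1 and Tbxa2r. Over 264 ratios of the 33 genes under other scalings, units or samples, none turned positive (log2 -6.37 to -2.80). The rule asked for a gap of 8-fold in these same counts, so the sign had little room to change. Over all tested genes, 4577 were lower and 4668 higher, with 4561 and 4627 under a replicate block, 4414 to 4575 and 4497 to 4662 without 1 sample, and 3606 and 5714 with upper quartile scaling, which raised the median log2 fold change by 0.23. That setting gave 38.7% lower calls, against 49.5%, and total-count scaling shifted the median by -0.12. With 1 read left over a group, the lowest shares are limited by depth.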

Other observations

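Gene lists without any of the 33 genes were read in the same edgeR fit, as counts of tested genes called in CAR-Trem2-Ms. Over all tested genes 40.9% were higher and 40.1% lower, and no list was tested against these shares. Wnt and Notch genes, the setting of Nxn, had 7 higher and 14 lower of 25. The receptor Lgr4 had a log2 fold change of -2.55 (adjusted p = 1.8e-11), the Notch target Hey2 of -2.13 (2.0e-07) and the Wnt-limiting ligase Znrf3 of -1.94 (2.0e-15). Krüppel-box zinc finger genes, the class of Zfp819, had 8 higher and 19 lower of 45, with Zfp275 at -1.34 (2.2e-15) and Zfp54 at 1.25 (1.4e-08). Ion channels, the class of Kcnj14, had 13 higher and 9 lower of 24, with the calcium-activated potassium channel Kcnn4 at 2.06 (1.8e-24) and the chloride exchanger Clcn5 at -1.88 (1.9e-17).

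Targets of the LXR sterol receptors had 9 higher and 6 lower of 17. Of the cholesterol exporters, Abcg1 (-2.77, 1.1e-21) was lower and Abcg5 (2.64, 4.9e-11) higher. Abca1 passed the rule before it was dropped by name, so its place among the 6 lower was set by that choice. It had 0.717, 0.918 and 0.818 CPM in CAR-Trem2-Ms against 9.5, 10.7 and 9.7 CPM in CAR-Ms. Nuclear receptors had 8 higher and 8 lower of 21, with Vdr, the receptor of active vitamin D, at 0.398, 0.102 and 0.164 CPM in CAR-Trem2-Ms against 4.01, 3.96 and 3.65 CPM in CAR-Ms. Vdr, too, passed the rule before it was dropped by name, and it counts among the 8 lower. Circadian clock genes had 5 higher and 9 lower of 15, and lipid kinases and phosphatases 14 higher and 10 lower of 27. The 42 partner genes chosen from these and the other lists kept their direction and call in all 588 of their values under other scalings, tests and samples. The 42 were picked as called genes of large change in these same counts, so this had little room to turn out otherwise. For Abca1 and Vdr, which are among the 42, the rule had also set the direction.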
